A study of Mus musculus with 4 samples.

Results

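The nuclei described here are 383 myeloid nuclei of the mouse right ventricle (RV) with transcripts of major histocompatibility complex class II (MHC II) genes or of the chemokine receptor Ccr2. They were picked from single-nucleus RNA counts of 4 libraries, among 48428 nuclei with at least 200 genes and under 10% mitochondrial counts. A count here is a unique molecular identifier (UMI), which stands for 1 captured transcript. A nucleus was taken as myeloid when it had at least 2 UMIs over Csf1r, Dock2, Ptprc, Mrc1, F13a1 and Runx1, with Ryr2, a transcript of cardiomyocytes (CMs), under 1% of its UMIs. It also had at most 1 UMI over 6 mitosis genes, 0 UMIs of the B cell genes Pax5, Bank1 and Cd79a, and at most 1 UMI over Ptprb, Pdgfra and Pdgfrb, which mark endothelial cells, fibroblasts and mural cells. These steps left 1641 myeloid nuclei. The 383 members were those with at least 2 UMIs over Ccr2, H2-Aa, H2-Ab1, H2-Eb1 and Cd74, which were 23.3% of the myeloid nuclei and 0.791% of all nuclei. The 24 genes of this rule are given below as a description, with no test.

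All libraries came from WT mice of strain C57/BL6J that had surgery at postnatal day 7 (P7) and were sampled at P21. In the RVVO group, a needle passed from the abdominal aorta into the inferior vena cava left an aortocaval fistula, which causes right ventricular volume overload (RVVO). For sham mice, the operation left both vessels unpunctured. The study's methods also describe injections of cyclosporine A, an immunosuppressant, or of saline after surgery, and the labels of these libraries mention no injection. There were 2 sham and 2 RVVO libraries, and the sources used here do not state whether a library held 1 mouse or several, so p-values measure the spread between these libraries, which may be technical. Xist, which is transcribed from the inactive X chromosome of female cells, had 413 and 495 UMIs in the members of sham 1 and sham 2 and 0 in those of RVVO 1 and RVVO 2. The Y-linked gene Uty had 0 and 0 UMIs in the sham libraries and 32 and 189 in the RVVO libraries. Both sham libraries thus held female transcripts and both RVVO libraries male ones, and whatever separated the groups may go with sex as well as with surgery, since the 2 cannot be told apart here.

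MHC II molecules are pairs of an alpha and a beta chain that carry peptides from ingested material to the cell surface for CD4+ T cells. H2-Aa and H2-Ab1 encode the chains of I-A, and H2-Eb1 encodes the beta chain of I-E. Cd74, the invariant chain, guards the groove of a new molecule until H2-DM exchanges its remnant for a peptide, and Ciita is the transcriptional coactivator that switches these genes on. In the heart, most macrophages are resident, some of them carry MHC II, and cells that have recently come from blood monocytes are known for Ccr2, the receptor for the monocyte attractant Ccl2.

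The promoters of MHC II genes share an X box, bound by the RFX complex, and a Y box, bound by NF-Y, which together recruit Ciita. The sequences of 3 genes whose transcripts define or mark these nuclei are shown from RefSeq (GRCm38.p6), each from 250 bases before to 50 bases after the RefSeq start. H2-Aa (minus strand) is at chr17:34287774-34288073, H2-Eb1 (plus strand) at chr17:34305617-34305916 and H2-DMb1 (plus strand) at chr17:34152941-34153240. Capitals mark the letters TGATTGG, the core of the Y box, and GCAAC, used here for the start of the X box, where they were found.
H2-Aa: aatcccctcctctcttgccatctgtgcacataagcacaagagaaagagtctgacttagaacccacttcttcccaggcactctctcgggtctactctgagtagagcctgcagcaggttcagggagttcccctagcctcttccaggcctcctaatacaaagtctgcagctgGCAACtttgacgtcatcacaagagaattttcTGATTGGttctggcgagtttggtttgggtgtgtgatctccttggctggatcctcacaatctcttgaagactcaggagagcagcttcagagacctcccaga
H2-Eb1: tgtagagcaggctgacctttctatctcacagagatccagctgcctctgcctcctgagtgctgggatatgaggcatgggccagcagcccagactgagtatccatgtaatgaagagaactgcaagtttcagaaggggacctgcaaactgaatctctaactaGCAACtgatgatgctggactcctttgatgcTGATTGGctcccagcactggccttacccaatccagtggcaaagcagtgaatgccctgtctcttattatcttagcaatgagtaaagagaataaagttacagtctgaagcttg
H2-DMb1: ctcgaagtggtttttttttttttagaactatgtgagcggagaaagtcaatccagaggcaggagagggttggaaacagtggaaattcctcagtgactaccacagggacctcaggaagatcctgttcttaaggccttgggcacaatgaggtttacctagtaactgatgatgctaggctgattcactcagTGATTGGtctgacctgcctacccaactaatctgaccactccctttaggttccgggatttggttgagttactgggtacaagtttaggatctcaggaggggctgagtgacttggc

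TGATTGG lay 50 bases before the start of H2-Aa, 61 before that of H2-Eb1 and 63 before that of H2-DMb1. GCAAC lay 81 and 91 bases before the starts of H2-Aa and H2-Eb1 and was not among the letters of the H2-DMb1 window. That window holds gtaactgatgatgct, where H2-Eb1 has gcaactgatgatgct. The letters GCAAC are only a short part of an X box, so their absence does not show that H2-DMb1 lacks one. On either strand, TGATTGG was in 7.82% of the 32851 RefSeq promoter windows of this length, GCAAC in 35.2% and both in 2.97%. The 2 motifs do not overlap in the windows shown. H2-Ab1, Ciita, Rfxap and March1 had no entry among the RefSeq windows, so their promoters were not searched. Among Ccr2 and the other MHC II control and loading genes described below, TGATTGG was also found for Rfx5, H2-DMb2, H2-Oa, H2-Ob and H2-Eb2. It was not found for Rfxank, H2-DMa, Ctss, Lgmn, Ifi30 or Ccr2.

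The members numbered 78 in sham 1, 90 in sham 2, 30 in RVVO 1 and 185 in RVVO 2, and values of 4 libraries are given in that order throughout. No barcode was a member in 2 libraries. Their summed UMIs were 196128, 211217, 107608 and 641704, and the median member had 1989, 2125.5, 3434 and 2745 UMIs. RVVO 1 therefore has the least material, and a gene with 0 UMIs there may still have a level of up to 27.9 CPM (UMIs scaled to the same total in each library), the level of 3 UMIs, against 15.3, 14.2 and 4.68 CPM in the others. RVVO 2 supplied nearly as many members as the other libraries together.

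Of all nuclei kept, 0.601%, 0.618%, 0.364% and 1.46% were members. The 95% exact (Clopper-Pearson) intervals, which cover counting error only, were 0.475 to 0.749%, 0.497 to 0.759%, 0.246 to 0.519% and 1.26 to 1.69%. The sham libraries were alike, while RVVO 1 was below both and RVVO 2 above both. The means were 0.609% ± 0.0121 (SD, n = 2) in sham and 0.914% ± 0.778 (SD, n = 2) in RVVO, a difference that did not pass the exact two-sided permutation test (p = 1.0). With 2 libraries against 2, the smallest p of that test is 0.33. Without RVVO 2 the difference of RVVO minus sham changed sign, from 0.305 to -0.246 percentage points.

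Among myeloid nuclei, members made up 20.6%, 20%, 15.5% and 29.9%, from 379, 450, 193 and 619 such nuclei. The RVVO libraries again lay on either side of the sham libraries, with means of 20.3% ± 0.410 (SD, n = 2) in sham and 22.7% ± 10.1 (SD, n = 2) in RVVO (exact permutation p = 1.0). A deeper nucleus reaches 2 UMIs more easily. When each nucleus was thinned to 1000 UMIs, which left out 4, 9, 0 and 0 members with fewer, the shares were 11.2%, 12.4%, 5.995% and 12.3% of 465, 451, 367 and 844 myeloid nuclei, and the mean difference turned from 2.43 to -2.64 percentage points (exact permutation p = 0.6667). The whole rule was applied again to the thinned counts, so nuclei could also enter under its upper limits (RVVO 1 went from 193 to 367 myeloid nuclei), and the thinned and full shares are not of the same nuclei. RVVO 2 was then level with the sham libraries and RVVO 1 stayed below them. Without RVVO 2 at full depth the difference was -4.75 percentage points.

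**Figure D1:**
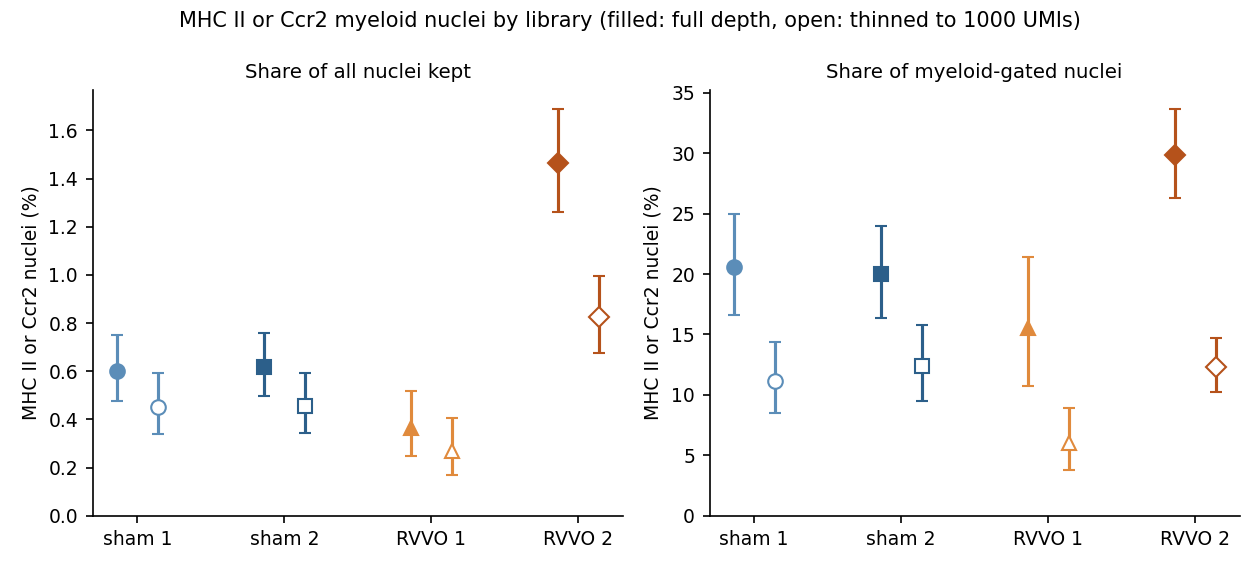
Share of MHC II or Ccr2 myeloid nuclei in each library, in percent of all nuclei kept (left) and of myeloid nuclei (right). Filled points are at full depth, open points after thinning each nucleus to 1000 UMIs, and bars are 95% Clopper-Pearson intervals. The sham libraries are close to each other, and RVVO 1 and RVVO 2 lie on opposite sides of them except for the thinned share of myeloid nuclei.

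The 5 genes that chose the members are described first. MHC II transcripts were the usual way in: 374 of 383 members had at least 1 UMI of H2-Aa, H2-Ab1, H2-Eb1 or Cd74, and 330 of them had no Ccr2. Ccr2 was found in 9, 9, 9 and 26 members, which were 11.5%, 10.0%, 30% and 14.1% of each library. Both kinds of transcript were found in 44 members, and 9 had Ccr2 alone. Of the 4 MHC II genes, 94 members had 1 detected, 198 had 2, 55 had 3 and 27 had all 4.

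Cd74 was at 622, 758, 632 and 478 CPM over the summed members and was detected in 75.6%, 83.3%, 80.0% and 75.7% of them. H2-Aa (chr17:34282744-34287823, GRCm38) was at 255, 237, 269 and 164 CPM. H2-Ab1 (chr17:34257689-34269419) was at 245, 232, 158 and 159 CPM. H2-Eb1 (chr17:34305867-34316674) was at 240, 180, 149 and 167 CPM. RVVO 2 was the lowest library for Cd74 and H2-Aa. These genes chose the members by the same 2 UMIs at any depth, and the median member was deeper in the RVVO libraries. Nuclei with exactly 2 UMIs of the 5 genes were thus at 879, 999, 575 and 567 CPM. The order of the libraries for these genes is therefore not a result about surgery. Ccr2 (chr9:124101950-124113557) was at 91.8, 75.8, 242 and 98.2 CPM. The value of RVVO 1 for Ccr2 came from 26 UMIs in 9 nuclei, 12 of them in a single nucleus.

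The threshold of 2 UMIs lies where the counts are dense. Exactly 2 UMIs over the 5 genes were found in 176 members and 3 or more in 207, while 348 myeloid nuclei just missed the rule with 1 UMI and 910 had 0. The genes were also counted outside myeloid nuclei. In barcodes with Ryr2 at 1% of UMIs or more, which are CMs and should lack MHC II, 2.32%, 2.76%, 3.09% and 5.14% had at least 2 UMIs, at median depths of 5179, 5197, 8704 and 5122 UMIs. After thinning to 1000 UMIs these shares were 0.182%, 0.19%, 0.130% and 0.284%, which are far below the thinned shares of 11.2%, 12.4%, 5.995% and 12.3% in myeloid nuclei. RVVO 2 had both the highest share in CMs and the most members, and the part of free RNA or of doublets in these counts was not tested.

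A measure outside the rule was taken across the threshold, as a description. The 14 genes of MHC II control, loading and turnover that the rule does not use, among them Ciita, H2-DMa, H2-DMb1, Ctss and March1, summed to 531 CPM over the nuclei with 0 UMIs of the 5 genes. They summed to 723 CPM over those with 1 UMI, 875 CPM over those with 2 and 1330 CPM over those with 3 or more. By library, the nuclei with 1 UMI were at 881, 786, 533 and 704 CPM, those with 2 at 1110, 1230, 935 and 709 CPM, and those with 3 or more at 1620, 1310, 1520 and 1220 CPM. In sham 2 the nuclei just inside the threshold were close to those with more UMIs, and in RVVO 2, which has the most UMIs in the pooled values, they were close to those just outside it.

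The myeloid label was checked against macrophage genes that the rule does not use. At least 2 UMIs over 16 core macrophage genes (such as Adgre1, Mertk, C1qa, Lyz2 and Spi1) were found in 332 members, or 86.7%, and in 500 of the 910 nuclei with 0 UMIs of the 5 genes, or 54.9%. By library the share was 84.6%, 85.6%, 80% and 89.2% of members and 48.0%, 45.7%, 55.4% and 70.6% of the others, whose median depth of 1483.5, 1494, 2678 and 2576 UMIs was lower than that of members in every library. Transcripts of other cell types were present as well. The 10 CM genes, of which Myh6 had the most UMIs, summed to 28100, 18000, 21200 and 21600 CPM in members, none of them at 0. They summed to 39200, 24800, 27100 and 22800 CPM in the nuclei with 0 UMIs of the 5 genes and to 35600, 29800, 33300 and 31400 CPM over all nuclei. The 11 T cell genes summed to 0, 204, 279 and 190 CPM, led by Skap1, with Cd3g and Cd8a at 0.

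Clustering of the 383 members without the genes of the rule gave 9 clusters, described here by their leading genes with no test. Cluster 1, with 112 nuclei, was macrophage-like. Its leading genes included the scavenger receptor Cd163 at 858 CPM against 245 CPM in the other members, the complement gene C1qa at 331 against 94.1 CPM, and Ms4a4a. The cholesterol exporter Abca1 was at 628 against 221 CPM. Cluster 4, with 32 nuclei, was monocyte-like, led by Gpr141 at 1190 against 41.1 CPM and fibronectin (Fn1) at 1510 against 70.9 CPM. Of its nuclei 21 had Ccr2, out of 53 members with Ccr2 in all. Saa3, an acute phase gene, also led cluster 4, but all of its 95 UMIs in members came from RVVO 2.

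Cluster 2, with 100 nuclei, stayed unnamed. It had the highest sum of the 10 CM genes among the 9 clusters, 32100 CPM against 20100 CPM in the other members. Its 16 core macrophage genes summed to 3040 against 2580 CPM. It had the lowest median depth of the 9, 1703.5 UMIs, and was led by the respiratory chain genes Ndufb11 and Cycs with the muscle genes Hrc and Mb, and by Bst2, the MHC class I-like gene H2-T23, the maturation marker of antigen-presenting cells Cd83, and Cadm1. Cluster 8, with 13 nuclei, was led by the DNA replication and repair genes Hells, Brca1, Pola1, Prim1 and Dtl, although the rule had limited mitosis genes to 1 UMI. Cluster 9, with 9 nuclei, was T cell-like. The T cell genes Skap1 at 3270 against 11.4 CPM, Il7r at 1900 against 7.04 CPM and Cd247 at 1030 against 1.76 CPM were among its leading genes, with Il23r and Cd163l1. All 9 nuclei had Ccr2, and the 16 core macrophage genes summed to 48.8 CPM in them.

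The other 4 clusters were led by genes of other cell types. Cluster 3 (43 nuclei) was led by the endothelial genes Cyyr1 and Flt1, and cluster 5 (30 nuclei) by the CM genes Cacna1c and Rbm20. Cluster 6 (29 nuclei) was led by the fibroblast-associated genes Ebf2 and Abca8a. The leading genes of cluster 7 (15 nuclei) included Wdr17 and the mesothelial gene Muc16. Together clusters 3, 5, 6 and 7 held 117 members, of which 38 were among the 41 members marked as doublets. They made up 26.9%, 18.9%, 16.7% and 40.0% of the members of each library. In cluster 5, with a median of 6375.5 UMIs, 21 of 30 nuclei were marked as doublets and 25 came from RVVO 2. The label of myeloid nuclei therefore did not hold for cluster 9 and held in a mixed form for clusters 3, 5, 6 and 7, and 257 members (67.1%) were in clusters 1, 2, 4 and 8.

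Libraries also differed in the 2 largest clusters. Cluster 1 held 3, 33, 10 and 66 members, or 3.85%, 36.7%, 33.3% and 35.7%, and cluster 2 held 53.8%, 31.1%, 23.3% and 12.4%. Sham 1 stood apart from the other 3 libraries in cluster 1. Without clusters 3, 5, 6, 7 and 9, members made up 15.9%, 16.5%, 12.4% and 19.6% of myeloid nuclei, and the mean difference of RVVO minus sham was -0.200 percentage points (exact permutation p = 1.0).

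**Figure D2:**
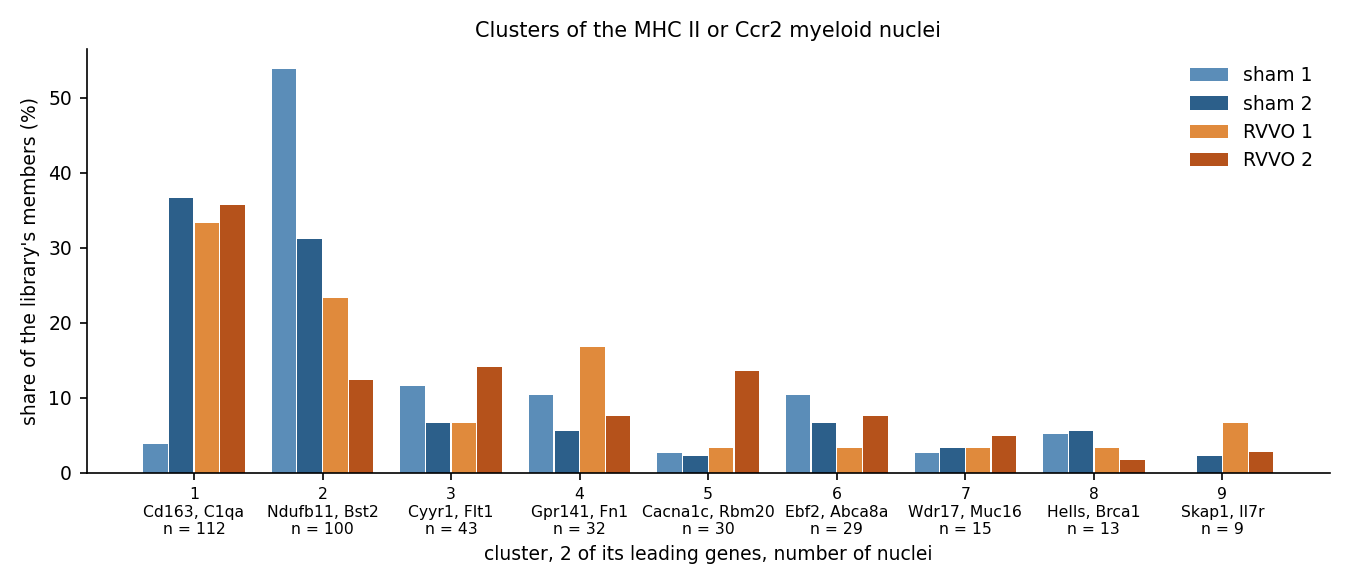
Share of each library's members (percent) in the 9 clusters of MHC II or Ccr2 myeloid nuclei, with 2 leading genes and the number of nuclei of each. Sham 1 has 3.85% of its members in cluster 1, where the other libraries have 33.3 to 36.7%, and RVVO 2 has 13.5% of its members in cluster 5, led by CM genes.

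To see which genes outside the rule went with MHC II or Ccr2, UMIs were summed per library over members and over the 910 myeloid nuclei with 0 UMIs of the 5 genes, called MHC II-negative here. They were compared with edgeR's quasi-likelihood test and the library as a block. Of 7264 genes tested outside the rule, 225 (3.10%) were higher in members and 169 (2.33%) lower at an adjusted p under 0.05, and 377 of these 394 moved the same way in all 4 libraries. At an unadjusted p under 0.05, 9.64% of genes were higher and 10.3% lower. Without sham 2, 0 of 7273 genes tested passed with edgeR, although 919 had an unadjusted p under 0.05. Without sham 1 and without RVVO 1, 184 and 208 genes passed, of which 155 and 199 were among the 394. When only nuclei with at least 2 UMIs of core macrophage genes were compared, H2-DMb1 and Ly86 alone remained. The part that macrophage content had in the other calls was not tested further. In bulk sums such as these, fewer cells of a type and less RNA per cell cannot be told apart.

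Of 14 MHC II control and loading genes, 5 had enough counts to be tested, and 4 of those rose (H2-DMb1, Ciita, Ctss and March1). The median log2 fold change of the 5 was 1.33, against -0.033 over all genes tested. Among nuclei with core macrophage UMIs 1 of the 5 passed, with a median of 0.93, where Ciita was at 1.83 (edgeR adjusted p = 0.097), Ctss at 0.93 (0.097) and March1 at 0.48 (0.31). H2-DMb1 encodes a beta chain of the peptide exchanger H2-DM. It was at 56.1, 52.1, 102 and 48.3 CPM in members and at 14.6, 10.2, 7.24 and 7.25 CPM in MHC II-negative nuclei, a log2 fold change of 2.58 ± 0.372 (SE; edgeR adjusted p = 0.00326). Every library of members was above every library of negative nuclei. The value held at 2.74 (adjusted p = 0.0318) among nuclei with core macrophage UMIs and missed the threshold without sham 2, at 2.66 (adjusted p = 0.0672). H2-DMb2, its near-identical neighbour, had 4 UMIs in members, and reads of the pair could have been divided between them.

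Ciita was at 143, 241, 177 and 93.5 CPM in members and 39.7, 44.9, 7.24 and 32.6 CPM in MHC II-negative nuclei. The groups did not overlap, and the log2 fold change was 2.19 ± 0.318 (SE; edgeR adjusted p = 0.00326), or 2.12 (adjusted p = 0.102) without sham 2. Ctss, cathepsin S, trims the invariant chain. It was at 372, 407, 177 and 201 CPM against 111, 127, 77.2 and 110 CPM, a log2 fold change of 1.33 ± 0.186 (adjusted p = 0.00272). March1, a ubiquitin ligase that removes MHC II from the surface, was at 622, 417, 651 and 458 CPM against 263, 231, 275 and 283 CPM, a log2 fold change of 0.95 (adjusted p = 0.00399). Without sham 2 both missed the threshold, at 1.21 for Ctss and 1.0 for March1 (edgeR adjusted p = 0.0835 for each). Lgmn, a lysosomal protease, was at 0.60 and did not pass (adjusted p = 0.111). The genes under the counting filter included the RFX subunits Rfx5, Rfxap and Rfxank, with 6, 6 and 8 UMIs in all members, and the genes H2-Oa and H2-Eb2 had 0.

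**Figure D3:**
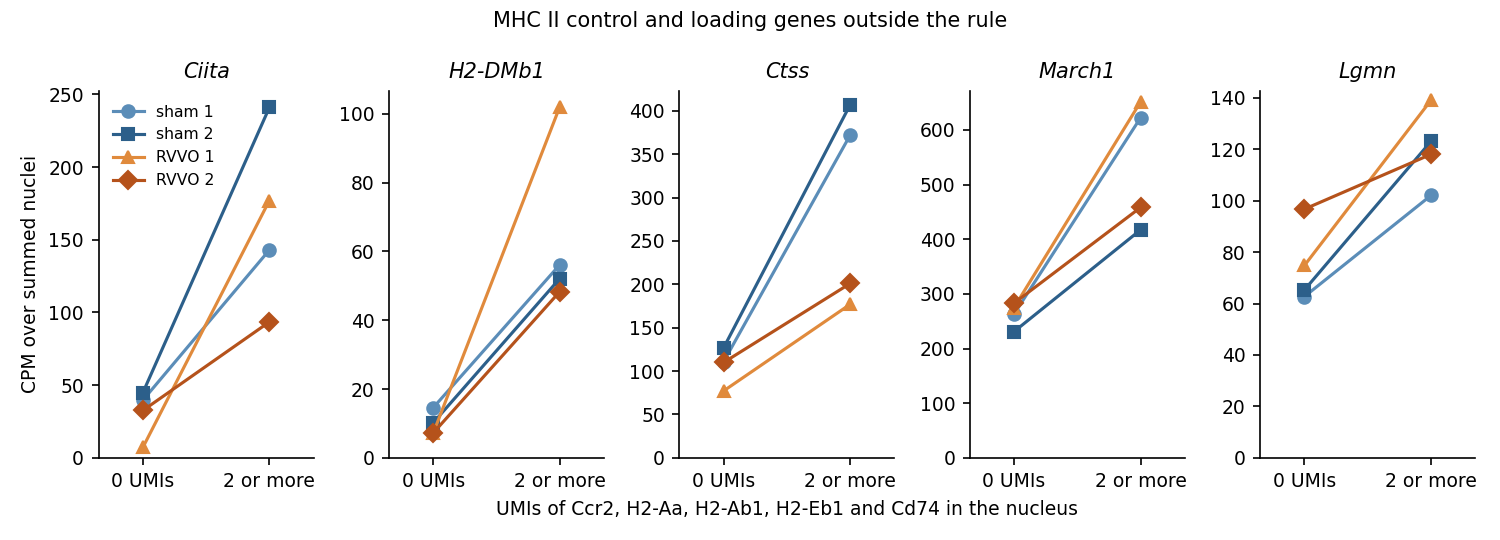
CPM over summed nuclei of 5 MHC II control and loading genes that the rule does not use, in MHC II-negative myeloid nuclei (0 UMIs of the 5 rule genes) and in members (2 or more). Each line is 1 library. All 4 lines rise for all 5 genes, of which Lgmn did not pass the test.

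Core and resident macrophage genes were counted separately. Of 16 core macrophage genes, 14 were tested and 7 passed, all higher, with a median log2 fold change of 0.88, against 3.10% higher and a median of -0.033 over all genes tested. Lyz2, the lysozyme of myeloid cells, was at 194, 152, 214 and 287 CPM against 52.3, 69.4, 84.5 and 132 CPM, a log2 fold change of 1.29 (edgeR adjusted p = 0.00326). Adgre1, the F4/80 antigen, was at 286, 507, 427 and 371 CPM against 134, 137, 195 and 212 CPM (log2 1.17, adjusted p = 0.00399). Spi1, the PU.1 transcription factor of the myeloid lineage, C1qa, Ctsc, Fcer1g and Tyrobp were the others. Ly86, which encodes the partner MD-1 of a Toll-like receptor relative, was at 418, 393, 381 and 371 CPM against 174, 176, 111 and 164 CPM (log2 1.27, adjusted p = 0.00172). Of 14 resident macrophage genes tested, Maf alone passed, with a median log2 of 0.14, and 6 of the 14 had a negative fold change. The resident list depended on the nuclei compared. When clusters 3, 5, 6, 7 and 9 were left out, 7 of 14 passed with a median of 0.56, where 776 of 6131 genes tested were higher. Among nuclei with core macrophage UMIs, 0 of 12 passed with a median of -0.22, where 2 of 5153 genes tested were called. The core list, whose genes chose those nuclei, then had 0 of 13 passing with a median of 0.43. Without sham 2 none of these passed, while the core list had a median of 0.83 with 10 of 13 genes at an unadjusted p under 0.05.

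Monocyte and dendritic cell genes were measured next, where 3.10% of all genes tested were higher. Of 12 classical monocyte genes, 6 were tested and 2 passed: Gpr141 at 178, 66.3, 223 and 114 CPM against 56.5, 38.8, 14.5 and 24.2 CPM (log2 1.99, edgeR adjusted p = 0.00692), and the integrin Itga4 (log2 0.81, adjusted p = 0.00836). Gpr141 was higher in each library of members than in any of negative nuclei. The monocyte genes Ly6c2 and Chil3 had 1 and 4 UMIs in all members. Of 10 genes of type 1 dendritic cells, 5 were tested and 2 passed, Wdfy4, which serves cross-presentation (log2 1.28, adjusted p = 0.00394), and Cadm1 (log2 1.18, adjusted p = 0.0174). Their defining genes Xcr1 and Clec9a had 1 and 8 UMIs in members. Of 12 genes of type 2 dendritic cells, 6 were tested and Ccdc88a alone passed (log2 0.82, adjusted p = 0.0112), while Flt3, Itgax and Cd209a had 7, 10 and 3 UMIs. Siglech and Spib of plasmacytoid dendritic cells were at 0 in every library, and the migratory dendritic cell genes Ccr7 and Ccl22 had 3 and 0 UMIs. None of these calls held without sham 2.

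The other genes among the 15 with the largest rises were in no list of the MHC II pathway. They included Cybb, the catalytic subunit of the phagocyte NADPH oxidase, at 245, 170, 232 and 156 CPM against 89.9, 47.0, 38.6 and 89.5 CPM (log2 1.46, edgeR adjusted p = 0.00615). Itgam, the CD11b integrin chain, was at 35.7, 33.1, 37.2 and 40.5 CPM against 8.36, 10.2, 4.83 and 16.9 CPM (log2 1.65, adjusted p = 0.0267). Both were higher in every library of members than in any of negative nuclei. Klra2, an inhibitory Ly49 receptor, rose by 1.79, the phospholipase B-like gene Plbd1 by 1.79, the chemokine Ccl9 by 1.63, and the adhesion molecule Alcam by 1.47 on the log2 scale. Lpxn, Trpv2, Coro2a, Neurl3, Samsn1 and Nlrp1a rose by 1.49 to 1.65. Without sham 2, none of these genes passed.

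No MHC class I or costimulatory gene was called between members and negative nuclei, where 3.10% of all genes tested were higher and 2.33% lower. In lists this short, a count of 0 is near that share. Of 15 genes of class I presentation, all were tested and 0 passed, with a median log2 fold change of 0.12, against -0.033 over all genes tested. B2m was at 454, 464, 297 and 379 CPM in members and 475, 382, 258 and 334 CPM in negative nuclei. Of 8 costimulatory genes 2 were tested and 0 passed. Cd86 was at 245, 199, 139 and 212 CPM against 148, 89.8, 101 and 174 CPM (log2 0.59, edgeR adjusted p = 0.0813). The cytokine genes Il1a, Il6, Il12b and Osm had 0 UMIs in members, which allows up to 15.3, 14.2, 27.9 and 4.68 CPM in the 4 libraries.

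Csmd1, which encodes a large transmembrane protein, had the largest fall. It was at 35.7, 0, 9.29 and 45.2 CPM in members against 98.3, 255, 596 and 173 CPM (log2 -2.91 ± 0.449 SE, edgeR adjusted p = 0.00394). Ncam1 (log2 -2.03) and Cdh19 (-1.90), a cadherin of Schwann cells, and the mesothelial gene Msln (-1.67) followed, and all were lower in each of the 4 libraries. Sntb1, Slc35f1, Piezo2, Pappa, Grip1, Satb1, Myct1, Scn7a, Pcsk6, Shroom2 and Tspan18 fell by 1.54 to 1.90 on the log2 scale. Over all genes tested, 2.33% fell and the median was -0.033. Of 9 endothelial genes all were tested and 3 fell (Emcn, Flt1 and Cyyr1), with a median log2 of -0.79, and of 9 tested fibroblast genes 3 fell (Lama2, Gsn and Col1a1), with a median of -0.63. The 9 endothelial genes summed to 1750, 686, 864 and 1400 CPM in members and 1960, 1610, 2100 and 1910 CPM in negative nuclei. The log2 fold change of Csmd1 was -2.51 without sham 2, where it no longer passed (edgeR adjusted p = 0.0835), like every other fall, and -4.06 (adjusted p = 0.000555) without RVVO 2.

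**Figure D4:**
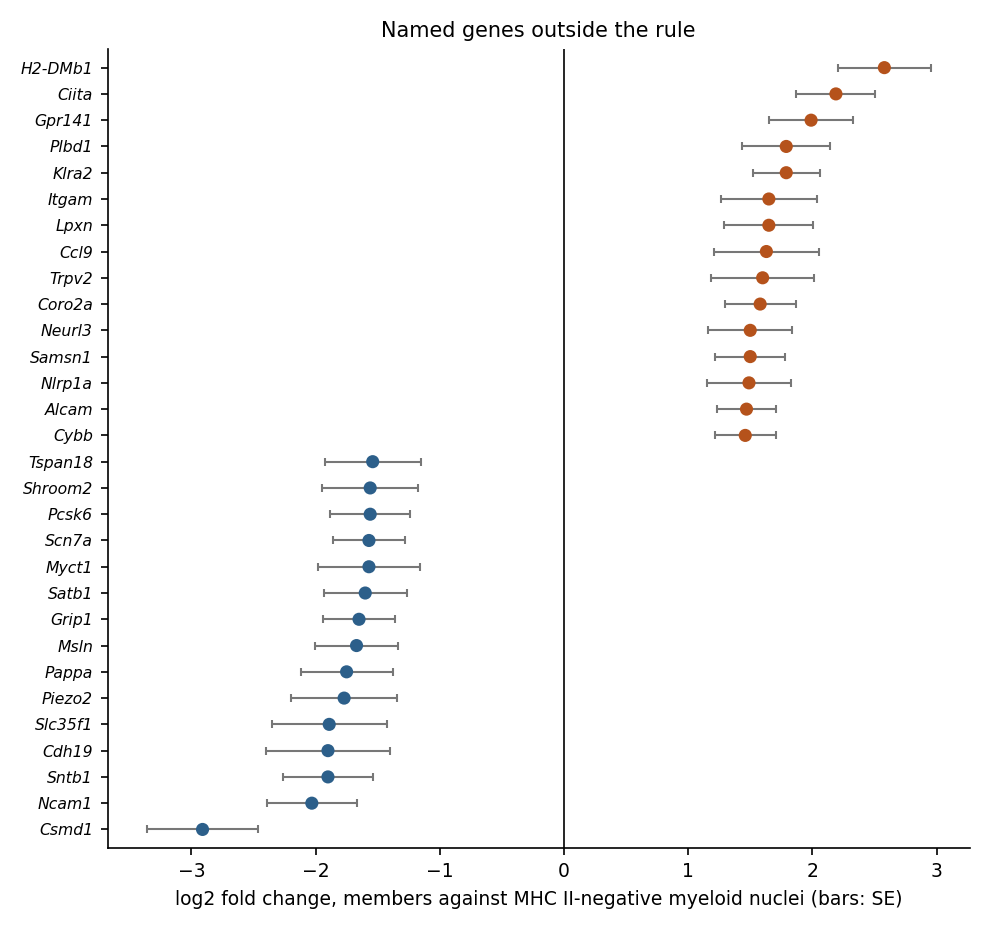
Log2 fold change (x axis) with its standard error of the 15 genes with the largest rise and the 15 with the largest fall outside the rule, in members against MHC II-negative myeloid nuclei. H2-DMb1 and Ciita lead the rises and Csmd1 the falls.

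The comparison of surgery within these nuclei used the sums of the 4 libraries. Of 4640 genes tested outside the rule with edgeR, 4 (0.0862%) were higher in RVVO and 2 (0.0431%) lower at an adjusted p under 0.05. The sex genes Xist (adjusted p = 0.000558) and Tsix (0.00209) were lower, and Uty (0.00462), Ddx3y (0.0396) and Eif2s3y (0.0396) were higher. The only autosomal call was Snx17, a sorting nexin that returns endosomal receptors to the surface, at 10.2, 9.47, 121 and 207 CPM (log2 4.10 ± 0.559 SE, adjusted p = 0.0396). Both RVVO libraries were above both sham libraries. The MHC II-negative nuclei had 18.8, 10.2, 174 and 163 CPM, and the interaction of surgery with population for Snx17 did not pass (log2 0.64, adjusted p = 1.0). Snx17 did not pass without RVVO 2 (log2 3.54, adjusted p = 0.304), with DESeq2 (4.07, 0.106), with the replicate block (4.02, 0.121) or among nuclei with core macrophage UMIs (4.39, 0.0712). The count of calls was 12 without sham 1, 18 without sham 2, 9 without RVVO 1 and 28 without RVVO 2.

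No gene of MHC II control and loading passed in this comparison. The 5 tested had a median log2 fold change of 0.07, against 0.009 over all genes. Ctss was at 372, 407, 177 and 201 CPM, with both RVVO libraries below both sham libraries (log2 -1.02 ± 0.284 SE, edgeR adjusted p = 0.927). At an unadjusted p under 0.05, 99 genes (2.13%) were higher and 103 (2.22%) lower over all genes, and the RVVO pair lay wholly below the sham pair in 17.0% of genes and above it in 14.9%. Of 15 class I presentation genes, 14 had a negative fold change, 3 of them at an unadjusted p under 0.05. The median log2 was -0.40, against 0.009 over all genes. The 15 genes summed to 2620, 2270, 1610 and 1910 CPM in members and 2290, 2090, 1060 and 1750 CPM in MHC II-negative nuclei. Over all nuclei they summed to 1760, 1420, 591 and 1190 CPM, so both RVVO libraries were also lower outside the members. Nlrc5, the class I counterpart of Ciita, was at 270, 232, 46.5 and 129 CPM (log2 -1.28 ± 0.408 SE, edgeR unadjusted p = 0.0122).

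Interferon-stimulated genes were the list that lay lowest. Of 25 genes, 17 were tested and 0 passed with an adjusted p, although 10 were lower at an unadjusted p under 0.05 with edgeR, against 2.22% of all genes. Their median log2 fold change was -1.05 against 0.009 over all genes. In 14 of 17 the RVVO pair lay wholly below the sham pair, against 17.0% of all genes tested. The summed level of the 25 genes was 4240, 3770, 1500 and 2120 CPM in members and 3610, 2790, 1060 and 1680 CPM in MHC II-negative nuclei. Over all nuclei it was 2430, 1610, 559 and 929 CPM, so the order of the libraries was the same in members, in MHC II-negative nuclei and in all nuclei, with RVVO 1 lowest. The part of RNA from other cells in the members' values was not tested. Leaving out each library in turn gave medians of -1.06, -1.21, -0.97 and -1.53.

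Parp14, a poly(ADP-ribose) polymerase family member induced by interferon, was at 658, 677, 251 and 299 CPM (log2 -1.25 ± 0.282 SE, edgeR adjusted p = 0.663). Mx1, an antiviral GTPase, was at 96.9, 99.4, 9.29 and 18.7 CPM (log2 -2.51 ± 0.494 SE, adjusted p = 0.329), from 1 and 12 UMIs in RVVO. In both genes the groups did not overlap. Rnf213 and Herc6, 2 interferon-inducible genes outside the list with the lowest p among genes that were not called, were at 862, 876, 223 and 313 CPM and at 566, 492, 130 and 190 CPM (log2 -1.65 for each, adjusted p = 0.281 and 0.311). Gbp3 was the single tested gene of the list without a negative fold change (log2 0.09). Under alternatives, Herc6 was called with the crossed pairing of replicates, and 1 of 25 list genes without the low-count filter.

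**Figure D5:**
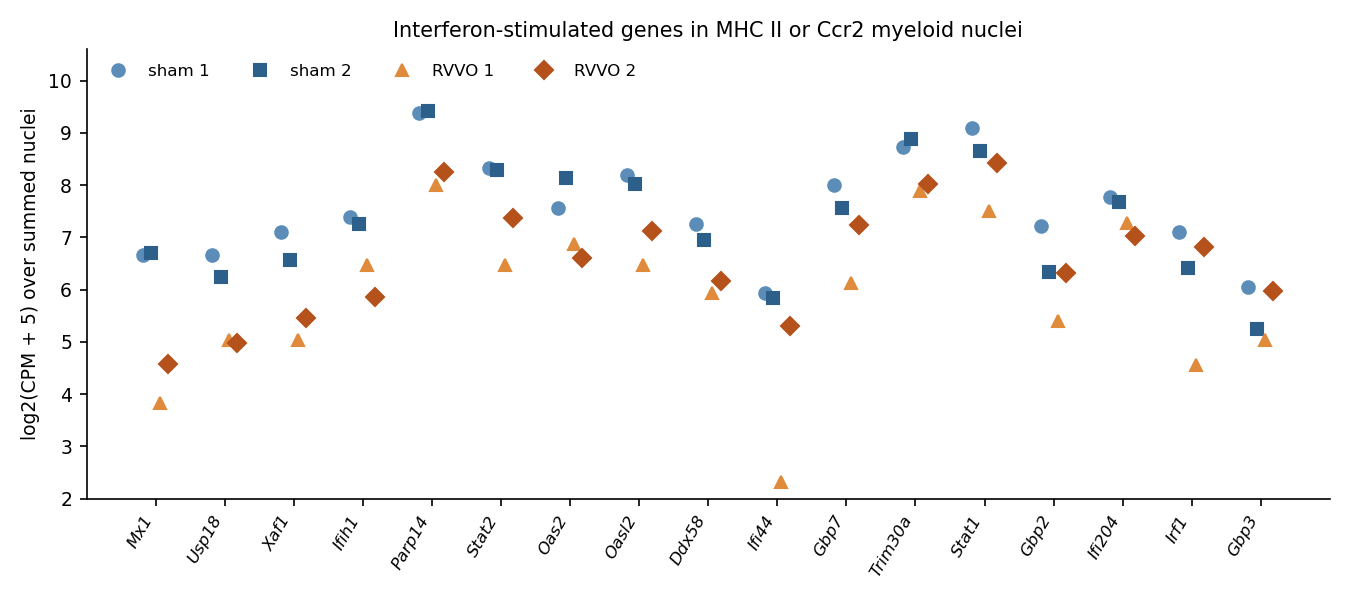
Levels of 17 interferon-stimulated genes in MHC II or Ccr2 myeloid nuclei, as log2(CPM + 5) over the summed nuclei of each library, ordered by fold change. Both RVVO libraries lie below both sham libraries for 14 genes, an order found in 17.0% of all genes tested. None passed the adjusted test.

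Monocyte and resident macrophage genes had no call by surgery in the comparison of all members. Fn1 was at 30.6, 94.7, 316 and 226 CPM (log2 2.05 ± 0.469 SE, edgeR adjusted p = 0.663). Colec12, a scavenger receptor in the resident macrophage list, was at 148, 133, 455 and 313 CPM (log2 1.41 ± 0.327 SE, edgeR adjusted p = 0.663). Both were higher in both RVVO libraries than in either sham library, as were 14.9% of all genes tested. The mean of Colec12 over libraries was 262 CPM in members and 280 CPM in MHC II-negative nuclei. The call of Fn1 depended on the setting. It passed under 6 alternatives, among them thinned sums (log2 2.34, edgeR adjusted p = 0.0153) and leaving out clusters 3, 5, 6, 7 and 9 (2.64, 0.0417), sham 2 (3.10, 0.00076) or RVVO 2 (2.33, 0.000993). It did not pass under 8 others, among them leaving out sham 1 (1.49, 0.543) or RVVO 1 (1.86, 0.189), removing doublets (2.15, 0.225), the replicate block (2.09, 1.0) and nuclei with core macrophage UMIs (2.01, 0.999). Of 11 resident macrophage genes tested, 3 were higher at an unadjusted p under 0.05 (Colec12, Cd163 and Igf1), with a median log2 of 0.42, against 2.13% higher and a median of 0.009 over all genes. That median was 0.00 without RVVO 1 and 0.99 without RVVO 2. With the replicate block it was 0.48, with 1 gene higher at an unadjusted p under 0.05. Without sham 1, the library with few members in cluster 1, which Cd163 helped to lead, the median was again 0.42, against 0.04 over all genes tested. Igf1, a growth factor made by cardiac macrophages, was at 15.3, 37.9, 65.1 and 67.0 CPM. The 13 core macrophage genes tested had a median log2 of 0.00, and 0 passed with an adjusted p.

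Whether the change with RVVO differed between members and MHC II-negative nuclei was tested as an interaction. Of 8452 genes outside the rule, 0 passed with edgeR (0% of those tested) and 0 with DESeq2, and 214 had an unadjusted p under 0.05 with edgeR (1.83% of genes upward and 0.698% downward). No gene was thus shown to respond to surgery in members and not in their MHC II-negative neighbours at this depth.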

How the data were processed

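Nuclei of P21 RVs were sequenced by the authors with the 10x 3′ v3 chemistry. The deposited matrices hold UMI counts per gene and barcode, whole numbers with no scaling, written by Cell Ranger 5.0.0 per the file headers. The submitters' processing notes name Cell Ranger 3.0.1, STAR, Seurat 3.0.2 and GRCm38 (mm10). Neither intron counting nor strandedness was stated by the sources used here, so overlapping and antisense genes such as Xist and Tsix cannot be told apart with certainty. Gene positions are from GENCODE for GRCm38.

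The rule kept 12982, 14564, 8247 and 12635 nuclei in sham 1, sham 2, RVVO 1 and RVVO 2, whose files held 15568, 15430, 8700 and 13392 barcodes and 55516713, 51010039, 64739206 and 63422784 UMIs. Doublets stayed in. They were marked as the highest Scrublet scores at 0.8% per 1000 barcodes of each library, because the automatic threshold marked almost none, and were removed in an alternative.

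UMIs were summed per library and tested with edgeR 4.0.16 in R 4.3.3 (TMM, filterByExpr, quasi-likelihood test, Benjamini-Hochberg over all genes tested, calls at 0.05). The scripts were first tested on simulated data. The library was the replicate. Members were clustered with scanpy 1.11.5 and leidenalg 0.10.2 (counts scaled to 10000, 2000 variable genes without those of the rule, 20 components, 15 neighbours, resolution 0.6). Thinning drew 1000 UMIs per barcode.

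Named genes were the genes of the rule, those with the largest changes among calls (up to 12 each way for surgery and 15 each way for members, with no overlap or the same direction in all libraries), the genes with the lowest p to fill 8 for surgery, the best expressed or called genes of the lists, sex genes and Snx17. Ly86 and genes at or near 0 were named after their values were seen. The members and gene lists were chosen with earlier results of these data known. Alternatives were DESeq2 1.42.0, RLE size factors, no low-count filter, thinned sums, removal of doublets or of nuclei with 2 or more T and NK cell UMIs, other barcode and UMI limits, a replicate block, deeper comparison nuclei and leaving out each library. Leaving out clusters 3, 5, 6, 7 and 9, requiring 2 core macrophage UMIs and a crossed pairing were added after seeing the data.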

Additional observations from a re-analysis of the deposited data

How the results depend on the processing

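For the share of all nuclei, RVVO minus sham ranged from -0.246 to 0.855 percentage points when each library was left out, and it was positive under every other alternative. The difference in the share of myeloid nuclei, 2.43 percentage points, was -2.64 and -4.33 after thinning to 1000 and 2000 UMIs, -0.200 without clusters 3, 5, 6, 7 and 9, -3.03 among nuclei with core macrophage UMIs, and -4.75 to 9.60 when each library was left out. The cause of these reversals was not tested.

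Of genes changed by surgery, 6 were called, against 3 with DESeq2, 25 without the low-count filter, 3 among nuclei with core macrophage UMIs, and 9 to 28 when each library was left out, where the lone library of a group is assumed to vary like the other group. The replicate block gave 3 calls (Xist, Tsix and Uty), and Snx17 did not pass under it, with DESeq2 or among nuclei with core macrophage UMIs, at log2 fold changes of 4.02, 4.07 and 4.39. The replicate numbers share only a number, with a correlation of -0.114 between the deviations of the libraries numbered 1, and the crossed pairing gave 8 calls.

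For members against MHC II-negative nuclei, 394 genes were called, against 103 with no replicate block, 237 with DESeq2, 719 without the filter, 699 without doublets, 695 against deeper negative nuclei, 1667 without clusters 3, 5, 6, 7 and 9, 2 among nuclei with core macrophage UMIs, and 0 to 557 when each library was left out. The library is a block there because both populations come from it. The interaction had 0 calls, and 6 without the filter. Among named genes, none of the called ones changed direction. Depth is a further limit: RVVO 1 has 30 members, and there a gene with 0 UMIs may be at up to 27.9 CPM.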

Other observations

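Il23r and Cd163l1, which are known from gamma delta T cells among others, led cluster 9. Il23r had 0, 0, 11 and 8 UMIs in the members of sham 1, sham 2, RVVO 1 and RVVO 2, and Cd163l1 had 2, 1, 20 and 15. Cluster 9 held 0, 2, 2 and 5 nuclei. Nuclei with at least 2 UMIs of T and NK cell genes were 20 of the 383 members, 1, 3, 4 and 12 by library.

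Saa3, an acute phase protein made by activated macrophages and mesothelial cells, had 0, 0, 0 and 95 UMIs in members, and 0, 0 and 0 CPM in the MHC II-negative nuclei of the first 3 libraries against 66.5 CPM in those of RVVO 2. Iigp1, an interferon-inducible GTPase, was at 1320, 544, 167 and 728 CPM in members and 1730, 676, 116 and 575 CPM in MHC II-negative nuclei, with sham 1 highest and RVVO 1 lowest in both. Cd274, which encodes the checkpoint ligand PD-L1, was at 163, 47.3, 0 and 56.1 CPM in members and 140, 49.0, 2.41 and 38.7 CPM in MHC II-negative nuclei, also with sham 1 highest and RVVO 1 lowest. RVVO against sham was not called with edgeR for Iigp1 (adjusted p = 1.0) or Cd274 (adjusted p = 1.0), and Saa3 was under the counting filter, but was called without sham 1 and without RVVO 1, where RVVO 2 remains with all of its UMIs.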
